A study of Mus musculus with 6 samples.

Results

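The mouse T cell receptor alpha variable (Trav) segments lie in 1 array on chromosome 14, and each codes for the front part of an alpha chain. They were taken as every row of the count table whose GRCm38 gene symbol starts with Trav. Of the 55536 rows of the table, 128 met this rule, and the 111 with 60 or more counts summed over 6 libraries are described here. A developing thymocyte joins 1 Trav segment to 1 joining segment, and the product is spliced to the constant gene Trac. The first joins use Trav segments at the Trac-proximal end of the array, and later rounds on the same chromosome replace them with more distal ones until a fitting receptor is made or the cell dies. Much of the array stands in duplicated blocks in C57BL/6 mice, whose copies carry a d or an n after the family number, and segments with dv in their symbol can also be joined into the delta chain of the receptor, which Trdc encodes.

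Polyadenylated RNA of thymocytes was sequenced from 3 mice labelled Il3ra-/- and 3 mice labelled Il3ra+/+, 1 library per mouse. Il3ra codes for the subunit of the interleukin-3 receptor that binds this cytokine. The labels name no treatment and give neither age nor the deleted part of the allele. The 2 genotypes are called the labelled knockout and wildtype below, and replicate 1, 2 and 3 name the libraries of each in that order.

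Il3ra itself, which also lies on chromosome 14, was not lower in the labelled knockout. It had 481, 673 and 514 counts in the labelled knockout and 465, 376 and 399 counts in wildtype, and averaged 7.78 ± 0.346 CPM (counts scaled by library size) in the labelled knockout and 6.81 ± 0.882 CPM in wildtype (SD, n = 3 each). The fold was 1.14 (edgeR's quasi-likelihood test, adjusted by Benjamini-Hochberg over all genes as throughout, adjusted p = 0.585). Reads over a gene check a knockout only where they fall in the deleted part, so this gene does not check the labels here. Total counts were 59135254 to 82684219 in the labelled knockout and 55747682 to 66534218 in wildtype. Replicate 1 of each genotype stood apart in Xist, an RNA made from the inactive X chromosome of females, with 2118 CPM in the labelled knockout and 1477 CPM in wildtype against at most 0.873 CPM in the other 4 libraries. Of 8 thymocyte markers (Cd3e, Cd4, Cd8a, Cd8b1, Rag1, Ptcra, Lck and Themis), none was at 0 in every library, and their sum was 8388 to 9067 CPM in the labelled knockout and 9845 to 11299 CPM in wildtype.

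Coding sequences show what a read can and cannot separate in this array. The first set below gives the segment whose CPM was higher in each library of the labelled knockout than in any of wildtype, the segment with the most counts, and the segment at the distal end, which had the lowest fold. Sequences are the last 300 spliced coding bases of the GENCODE M21 transcripts on GRCm38, plus strand, 5′ to 3′. Capitals mark the last in-frame cysteine codon, the conserved residue at which the germline framework ends and the junction with the joining segment begins. Trav21-dv12 has its coding bases within chr14:53876016-53876752, Trav16 within chr14:53743174-53743705, and Trav1 within chr14:52427967-52428876.
Trav21-dv12: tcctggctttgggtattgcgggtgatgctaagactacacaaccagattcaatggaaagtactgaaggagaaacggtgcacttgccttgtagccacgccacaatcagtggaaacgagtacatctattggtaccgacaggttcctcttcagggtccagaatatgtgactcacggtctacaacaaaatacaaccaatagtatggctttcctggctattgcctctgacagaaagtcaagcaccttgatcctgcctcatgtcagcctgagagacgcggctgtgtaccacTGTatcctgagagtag
Trav16: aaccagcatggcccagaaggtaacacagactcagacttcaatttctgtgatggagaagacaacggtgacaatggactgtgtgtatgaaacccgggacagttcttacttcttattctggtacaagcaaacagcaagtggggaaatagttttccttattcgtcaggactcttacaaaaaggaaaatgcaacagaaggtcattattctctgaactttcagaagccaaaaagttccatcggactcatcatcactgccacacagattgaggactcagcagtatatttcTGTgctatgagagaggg
Trav1: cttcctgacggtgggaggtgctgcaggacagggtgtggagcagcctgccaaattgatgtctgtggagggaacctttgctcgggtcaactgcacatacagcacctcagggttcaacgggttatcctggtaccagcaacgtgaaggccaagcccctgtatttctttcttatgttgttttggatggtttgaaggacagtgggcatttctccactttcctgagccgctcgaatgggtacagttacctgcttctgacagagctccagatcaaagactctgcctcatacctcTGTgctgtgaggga

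The second set shows 3 members of the Trav12 family, which stand for the duplicated blocks, from coding base 45 to the end. Trav12d-2 lies within chr14:52915909-52916426, Trav12n-2 within chr14:53226883-53227400, and Trav12-2 within chr14:53616397-53616914. In Trav12-2, capitals mark the 14 bases that set it apart from Trav12d-2, of which 11 are substitutions and 3 are inserted.
Trav12d-2: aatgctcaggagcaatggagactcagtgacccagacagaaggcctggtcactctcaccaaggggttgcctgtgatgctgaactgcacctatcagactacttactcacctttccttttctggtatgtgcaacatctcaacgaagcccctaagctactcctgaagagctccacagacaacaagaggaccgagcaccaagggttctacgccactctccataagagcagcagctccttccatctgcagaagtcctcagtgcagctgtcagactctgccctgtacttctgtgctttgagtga
Trav12n-2: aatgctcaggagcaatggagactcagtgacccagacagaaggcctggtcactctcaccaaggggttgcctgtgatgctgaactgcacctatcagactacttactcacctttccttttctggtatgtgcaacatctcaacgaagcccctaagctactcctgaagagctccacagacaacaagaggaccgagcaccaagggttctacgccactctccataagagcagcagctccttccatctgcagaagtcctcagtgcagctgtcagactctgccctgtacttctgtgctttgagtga
Trav12-2: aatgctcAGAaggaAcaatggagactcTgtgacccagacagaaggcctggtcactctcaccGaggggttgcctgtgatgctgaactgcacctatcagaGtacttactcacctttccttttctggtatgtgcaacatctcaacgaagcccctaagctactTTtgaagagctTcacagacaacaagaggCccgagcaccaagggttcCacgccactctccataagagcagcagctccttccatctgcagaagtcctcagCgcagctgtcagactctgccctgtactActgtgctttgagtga

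Trav12d-2 and Trav12n-2 are the same over all 341 coding bases, and their counts were the same in every library. Both had 110, 181 and 113 counts in the labelled knockout and 155, 190 and 156 counts in wildtype. Trav12-2 had counts of its own, with 108, 239 and 112 in the labelled knockout and 146, 183 and 149 in wildtype.

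The third set gives the ends of coding sequences of other segments named below, where the read meets the junction. Capitals again mark the last in-frame cysteine codon.
Trav14d-1: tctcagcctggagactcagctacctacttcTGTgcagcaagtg
Trav14n-1: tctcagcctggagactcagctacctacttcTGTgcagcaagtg
Trav14-2: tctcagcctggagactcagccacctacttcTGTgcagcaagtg
Trav7d-2: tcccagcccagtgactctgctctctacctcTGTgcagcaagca
Trav7-2: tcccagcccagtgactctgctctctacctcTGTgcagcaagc
Trav12-1: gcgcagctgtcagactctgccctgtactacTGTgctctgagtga
Trav13-1: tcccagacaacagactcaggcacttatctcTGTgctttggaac
Trav15-2-dv6-2: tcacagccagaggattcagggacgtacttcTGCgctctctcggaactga
Trav18: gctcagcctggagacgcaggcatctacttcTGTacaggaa

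Copies that share their coding sequence shared their counts. Near-equal counts, meaning less than 10% difference in all 6 libraries between segments within 1 Mb of each other, joined 19 pairs of the same family, and in 9 of these pairs the counts were identical in every library. Of 401 pairs within a family that both had a coding sequence, 20 had no differing base where they aligned, and 19 of the 20 had near-equal counts. The exception was Trav9d-4 with Trav9n-4, named after its values were seen, whose counts differed by up to 17.4%. Their annotated coding sequences have 310 and 340 bases and align over 310. Lengths also differed in some near-equal pairs, such as Trav6d-7 with Trav6n-7 (338 and 350 bases). In the 7 pairs with 1 to 3 differing bases none was near-equal, and the largest difference in a library ran from 18.1% to 41.2%. The values of a near-equal pair cannot be told apart and are 1 measurement given to 2 names. With Trav7n-6, whose near-equal partner C920008G01Rik has another kind of symbol, 39 of the 111 segments had such a copy and 72 had none.

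**Figure D1:**
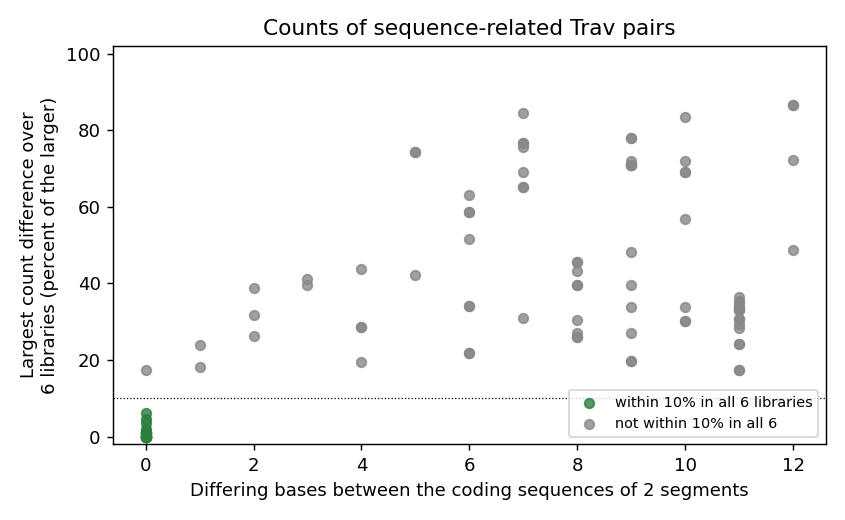
Largest count difference over the 6 libraries, as a percent of the larger count (y axis), against the number of differing coding bases (x axis) for pairs of Trav segments of the same family. Each point is a pair, green where the counts lay within 10% in all 6 libraries (dotted line), and the green points all stand at 0 differing bases.

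The 111 segments belong to 22 families and start between 52427928 (Trav1, the most distal) and 53977153 (Trav23, the most proximal) on chromosome 14, a span of 1549 kb. Cut into 3 parts of equal length, 516.4 kb each, 29 lie in the distal part, 44 in the middle part and 38 in the proximal part, which is nearest to Trac. Their annotated exonic length is 271 to 595 bases, with a median of 371. Of the 17 rows below the count minimum, 15 are annotated as pseudogenes and 3 had 0 counts, and of the 111 above it 5 are annotated as pseudogenes. Just outside the minimum stood Trav22 with 48 counts and Trav11n with 56. Just inside stood Trav20 with 72 and Trav23 with 83.

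Trav counts were spread over many segments. A segment's share, its percent of all counts in the 111 segments of a library, had a median of 0.865% when averaged over the 6 libraries, and 43 segments held 1% or more. The largest share was 2.41% (Trav16) and the smallest 0.081% (Trav20, annotated as a pseudogene). The 10 largest were Trav16, Trav14d-1, Trav14n-1, Trav14-2, Trav14d-2, Trav16n, Trav3d-3, Trav3n-3, Trav14n-2 and Trav6d-7, and together they held 19.3%. Of these 10, 7 have a near-equal copy, so the summed share may hold the same reads more than once. Per kb of exonic length, Trav16 had 12.7 CPM, Trav14d-1 12.3 CPM and Trav13-1 11.1 CPM, the median segment had 4.98 CPM, and 5 of the 10 largest by share were also among the 10 largest by this measure.

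Shares of single segments were correlated from mouse to mouse. Over the 72 segments without a near-equal copy, Pearson's r of the shares was 0.904 to 0.943 between libraries of the labelled knockout, 0.937 to 0.953 between libraries of wildtype, and 0.833 to 0.961 between libraries of different genotype. These correlations describe segments that share a library and are not replicates. Counts nevertheless varied beyond sampling noise, with a chi-square per degree of freedom of 3.84 within the labelled knockout and 2.52 within wildtype. The effective number of segments, the exponential of the Shannon entropy of the shares, was 89.1, 91.4 and 93.1 in the labelled knockout and 93.3, 94.6 and 92.3 in wildtype, so the genotypes overlapped (two-sided exact permutation p = 0.2).

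Summed Trav RNA was lower in each library of the labelled knockout than in any of wildtype. The sum was 190, 223 and 183 CPM in the labelled knockout and 250, 248 and 239 CPM in wildtype. The means were 199 ± 21.1 CPM in the labelled knockout and 246 ± 5.72 CPM in wildtype (SD, n = 3 each), a difference of -47.2 CPM. The two-sided exact permutation p was 0.1, which is the smallest that 3 libraries against 3 can give. This sum may hold the reads of near-equal copies more than once. With such copies counted once, the sum was 151, 180 and 148 CPM in the labelled knockout and 198, 198 and 193 CPM in wildtype. The genotypes again did not overlap. In such bulk RNA, fewer cells that use a segment and less of its RNA per cell cannot be told apart.

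Trac, the constant part that every Trav product is spliced to, was also below wildtype in each library of the labelled knockout. It had 316, 393 and 351 CPM in the labelled knockout and 467, 468 and 474 CPM in wildtype, with no overlap and little spread in wildtype. Its fold was 0.752, short of the threshold of edgeR's quasi-likelihood test over all genes (adjusted p = 0.154). DESeq2 put it past the threshold of 0.05 (adjusted p = 0.0124), and so did edgeR without a filter on low counts (adjusted p = 0.0245). Every other alternative left Trac short of it. Its adjusted p was 0.203 in limma-voom, and 0.29 in edgeR with the replicate number as a block. Summed Trav counts per 100 Trac counts were 60.2, 56.7 and 52.3 in the labelled knockout and 53.5, 53.0 and 50.5 in wildtype. This ratio overlapped between the genotypes, and its level is too high if near-equal copies counted the same reads.

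Transcripts of the delta chain, encoded inside the same locus between the Trav array and Trac, stood above wildtype. Trdc, the delta constant gene, had 148, 109 and 135 CPM in the labelled knockout and 99.6, 73.3 and 107 CPM in wildtype. The lowest library of wildtype was replicate 2 and no library of the labelled knockout was below any of wildtype, but the fold of 1.40 was short of the threshold in edgeR (adjusted p = 0.208). Trdv segments, variable segments joined into the delta chain alone, summed to 9.54 to 11.6 CPM in the labelled knockout and 6.04 to 7.65 CPM in wildtype, with no overlap. Of 6 Trdv segments in the table, 4 were tested, all 4 were fitted higher and none passed the adjusted threshold. A list of 6 gamma delta T cell markers, Trdc among them, had 5 tested. In this list 4 were fitted higher and 1, not reported here, lower, and the summed CPM of the list overlapped between the genotypes. Of other markers of gamma delta T cells, Sox13, a transcription factor of these cells, had 13.7, 17.8 and 19.2 CPM in the labelled knockout and 9.43, 12.1 and 12.5 CPM in wildtype, a fold of 1.49 with no overlap. Cd163l1, a scavenger receptor, had 12.6, 19.4 and 30.6 CPM in the labelled knockout and 11.6, 12.5 and 8.99 CPM in wildtype, a fold of 1.89 with the nearest libraries of the genotypes almost level. Blk, a Src-family kinase, had a fold of 1.38 and overlapped between the genotypes, and none of these 3 passed the adjusted threshold. Il17a, a cytokine gene, was at 0 in all libraries but replicate 2 of the labelled knockout, which had 2 counts.

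**Figure D2:**
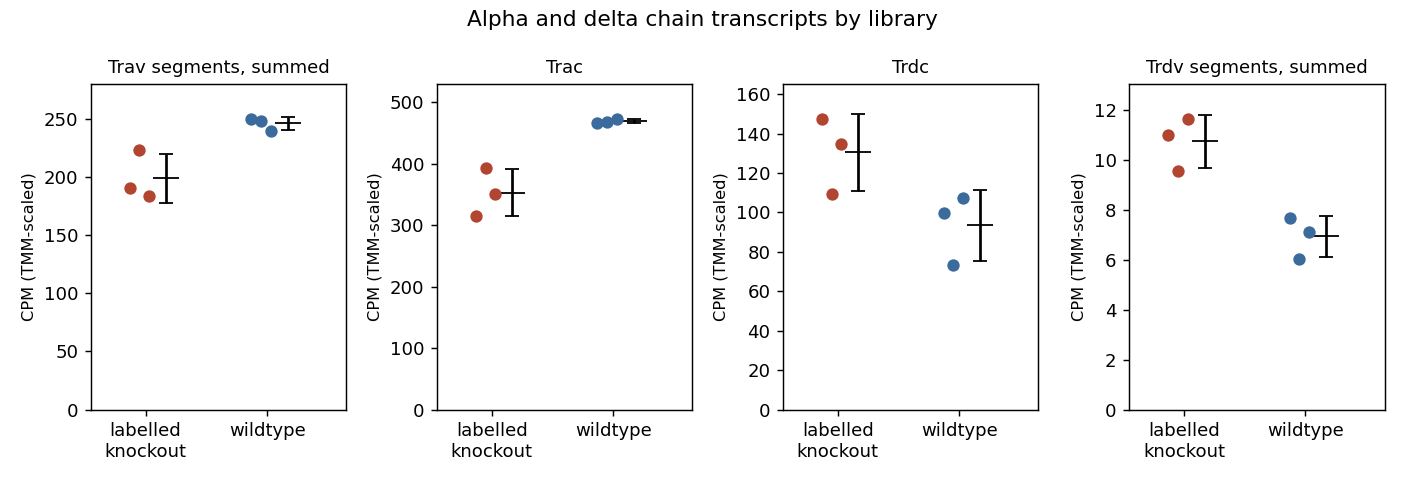
Summed Trav segments, Trac, Trdc and summed Trdv segments in CPM (y axes, from 0) in each library, with the labelled knockout left of wildtype. Points are libraries and bars are the mean ± SD (n = 3 each); the 2 alpha chain panels are lower and the 2 delta chain panels higher in the labelled knockout, with no overlap.

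The 33 genes of a list on alpha chain rearrangement, assembly and signal (the constant genes, the CD3 chains, the Rag recombinase, DNA end joining and regulators of the locus) gave no call in edgeR's quasi-likelihood test. At an unadjusted p under 0.05, 4 were higher and 5 lower, where all genes tested gave 8.01% higher and 6.60% lower. Of the 33, 13 were fitted higher and 20 lower, against 48.8% of all genes fitted lower, and DESeq2 called 0 higher and 1 lower, which was Trac. The median log2 fold of the list was -0.05, against 0.01 over all genes tested. Besides Trdc, the higher members with an unadjusted p under 0.05 were Xrcc6, which codes for the Ku70 end-joining protein (fold 1.18), and 2 subunits of cohesin. These were Rad21 (fold 1.23) and Smc1a (fold 1.21). Besides Trac, the lower members included Dclre1c (fold 0.793), Rag1 (fold 0.817) and Bcl2l1 (fold 0.874), named after their values were seen. None of these passed the adjusted threshold. The beta chain constant genes Trbc1 and Trbc2 had folds of 0.963 and 0.928.

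No single Trav segment passed the adjusted threshold. EdgeR's quasi-likelihood test called 0 of 111 higher and 0 lower at a Benjamini-Hochberg adjusted p under 0.05, where it called 0.0161% of all 18690 genes tested higher and 0.0749% lower. At an unadjusted p under 0.05, 0 segments were higher and 16 lower, against 8.01% higher and 6.60% lower of all genes. Of the 16, 9 have a near-equal copy, and 7 were among the 72 segments without one. DESeq2 also called 0, where it called 2.95% of all genes higher and 1.52% lower. DESeq2 gave an adjusted p to 71 segments, the smallest of them 0.0763, and the other segments could not be called. It had 0 segments higher and 21 lower at an unadjusted p under 0.05. The share of all genes at that p in DESeq2 is not given.

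The folds nevertheless leaned one way over the array. Of the 111 segments, 97 were fitted lower and 14 higher, so that 87.4% were lower against 48.8% of all genes tested. Their median log2 fold was -0.34, against 0.01 for all genes. The CPM of the genotypes did not overlap in 43 segments, of which 42 were lower and 1 was higher (Trav21-dv12), where the background over all genes was 9.38% lower and 10.9% higher. Among the 72 segments without a near-equal copy, 23 were lower and 1 higher in this way. Segments of a library share its Trav total, so these counts are not independent of the summed level above.

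The 5 segments of smallest p among those fitted lower were Trav12-1, Trav7-2, Trav7d-2, Trav1 and Trav14-2. Trav12-1 had 1.69, 1.68 and 1.32 CPM in the labelled knockout and 2.58, 2.30 and 2.62 CPM in wildtype, a fold of 0.625 (edgeR's quasi-likelihood test, adjusted p = 0.216). Trav7-2, whose end is printed above beside that of its near-equal copy Trav7d-2, had 76, 147 and 85 counts in the labelled knockout and 124, 151 and 147 in wildtype, a fold of 0.611. Neither segment overlapped between the genotypes in CPM. Trav1 had 9, 28 and 30 counts in the labelled knockout and 52, 47 and 30 in wildtype. It was lowest in replicate 1 of the labelled knockout, and its fold of 0.432 was the lowest of all 111 segments (edgeR's quasi-likelihood test, adjusted p = 0.248). Trav14-2, whose end is printed above, had 3.02, 4.004 and 3.02 CPM in the labelled knockout and 5.35, 4.48 and 4.51 CPM in wildtype, a fold of 0.702.

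The 5 segments of smallest p among those fitted higher were Trav21-dv12, Trav20, Trav18 and the copies Trav15d-2-dv6d-2 and Trav15n-2. Trav21-dv12 had 279, 300 and 262 counts in the labelled knockout and 185, 181 and 209 in wildtype. In CPM this was 4.61, 3.58 and 3.77 in the labelled knockout and 3.10, 3.13 and 3.20 in wildtype, so that each library of the labelled knockout was above each of wildtype. The fold was 1.26 (edgeR's quasi-likelihood test, adjusted p = 0.434). Trav18 had 44, 44 and 39 counts in the labelled knockout and 23, 31 and 27 in wildtype, a fold of 1.35, and Trav20 had 12, 25 and 12 in the labelled knockout and 6, 12 and 5 in wildtype, a fold of 1.76. Both overlapped between the genotypes in CPM and neither passed the threshold.

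Segments with the most counts differed in how they compared. Trav16 had 5.42, 6.54 and 4.10 CPM in the labelled knockout and 4.55, 5.09 and 6.21 CPM in wildtype, and these ranges overlapped (fold 1.01). Trav14d-1 had 5.04, 5.29 and 4.02 CPM in the labelled knockout and 5.65, 4.90 and 5.67 CPM in wildtype, with a fold of 0.885. Trav3d-3 had 3.21, 3.97 and 3.00 CPM in the labelled knockout and 4.80, 4.67 and 3.92 CPM in wildtype, a fold of 0.761. Its counts lay within 10% of those of Trav6d-7, a segment of another family. Trav16n and the near-equal copies Trav14d-2 and Trav14n-2 overlapped between genotypes too, with folds of 0.878, 0.823 and 0.825.

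**Figure D3:**
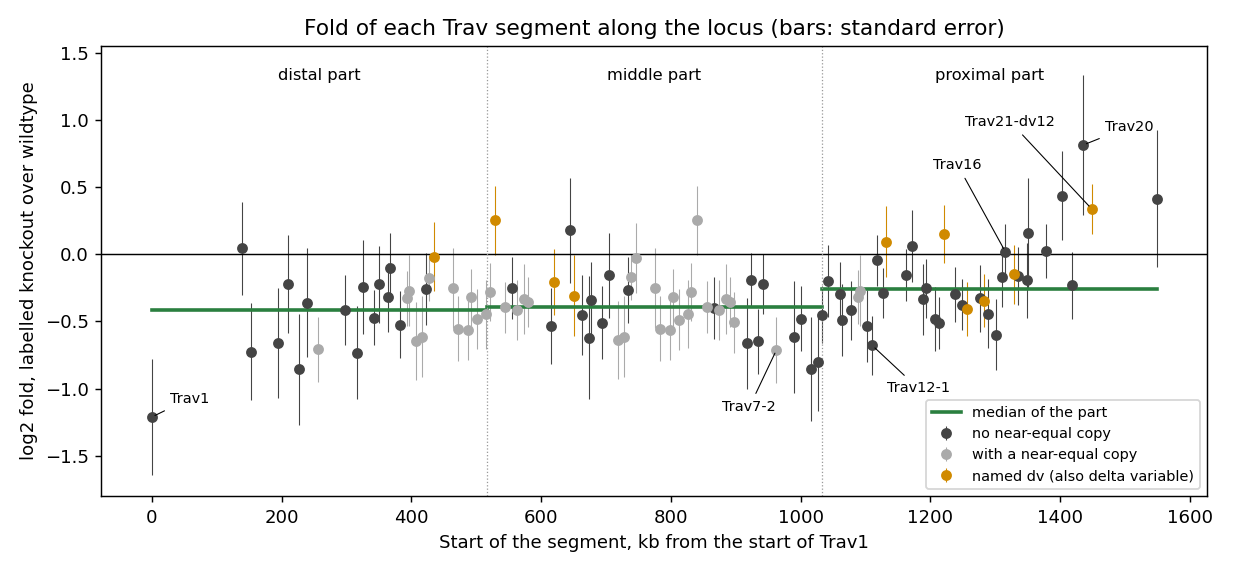
Log2 fold of each of the 111 segments, labelled knockout over wildtype, with its standard error (y axis), against the distance of its start from that of Trav1 in kb (x axis, distal to proximal). Green lines are the medians of the parts, at -0.41, -0.39 and -0.26; grey points have a near-equal copy and orange points are dv segments.

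Position in the array went with the size of the fold. In the distal part 28 of 29 segments were fitted lower with a median fold of 0.750, and in the middle part 41 of 44 with a median of 0.761. In the proximal part 28 of 38 were fitted lower and 10 higher, with a median of 0.834. The log2 fold was correlated with the distance from Trav1, with Pearson's r = 0.376 and Spearman's rho = 0.297 over the 111 segments, and with 0.426 and 0.418 over the 72 without a near-equal copy, as a description over segments that share their libraries. Among the last 8 segments, from Trav3-4 to Trav23, 6 were fitted higher and 2 lower, with a median fold of 1.19. This stretch was chosen after its values were seen.

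Shares of all Trav counts gave the same comparison free of the summed level. The distal part held 17.9%, 19.6% and 19.3% of Trav counts in the labelled knockout and 20.0%, 20.7% and 19.7% in wildtype. The proximal part held 41.7%, 40.6% and 40.6% in the labelled knockout and 37.4%, 38.6% and 40.3% in wildtype. Neither part overlapped between the genotypes, but the nearest libraries were close in both. In the distal part replicate 2 of the labelled knockout had 19.59% and replicate 3 of wildtype 19.69%, and in the proximal part replicate 3 of the labelled knockout had 40.56% and replicate 3 of wildtype 40.31%. The differences of the means were -1.20 and 2.18 percentage points (two-sided exact permutation p = 0.1 for each, the smallest possible). The middle part held 40.4%, 39.8% and 40.2% in the labelled knockout and 42.6%, 40.7% and 40.0% in wildtype and overlapped (exact permutation p = 0.3).

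The mean start of a Trav count, weighted by counts, was 890, 875 and 878 kb from Trav1 in the labelled knockout and 857, 862 and 874 kb in wildtype. The genotypes did not overlap, and the difference was 16.6 kb toward the proximal end (two-sided exact permutation p = 0.1). Without segments that have a near-equal copy it was 24.1 kb and the genotypes overlapped (exact permutation p = 0.2), and so did the proximal share, at 64.9% in the labelled knockout and 62.0% in wildtype. Without replicate 1 of each genotype, the Xist-high libraries, the difference was 8.53 kb in position and 1.15 percentage points in the proximal share, and neither overlapped. With fewer libraries left, a lack of overlap says less. The nearest libraries were almost level, at 875 kb in replicate 2 of the labelled knockout and 874 kb in replicate 3 of wildtype. In the proximal share they were replicate 3 of each, at 40.56% in the labelled knockout and 40.31% in wildtype.

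In steps of 100 kb, the ratio between the genotypes was farthest from 1 at the ends of the array, where few counts lie. In percentage points the widest gap of the means was in the step from 1300 to 1400 kb, which held 10.1%, 8.25% and 8.40% of Trav counts in the labelled knockout and 7.15%, 7.13% and 8.66% in wildtype, and overlapped. The step with Trav1 alone held 0.154% of Trav counts in the labelled knockout and 0.289% in wildtype. Steps between 400 and 900 kb had ratios of 0.980 to 1.002 between the genotypes. The step from 1400 to 1500 kb, which holds Trav18 to Trav21-dv12, held 3.80%, 2.57% and 3.16% in the labelled knockout and 2.01%, 2.20% and 2.39% in wildtype, and did not overlap. The last step, with Trav23 alone, held 0.217%, 0.075% and 0.086% in the labelled knockout and 0.060%, 0.091% and 0.070% in wildtype and overlapped.

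**Figure D4:**
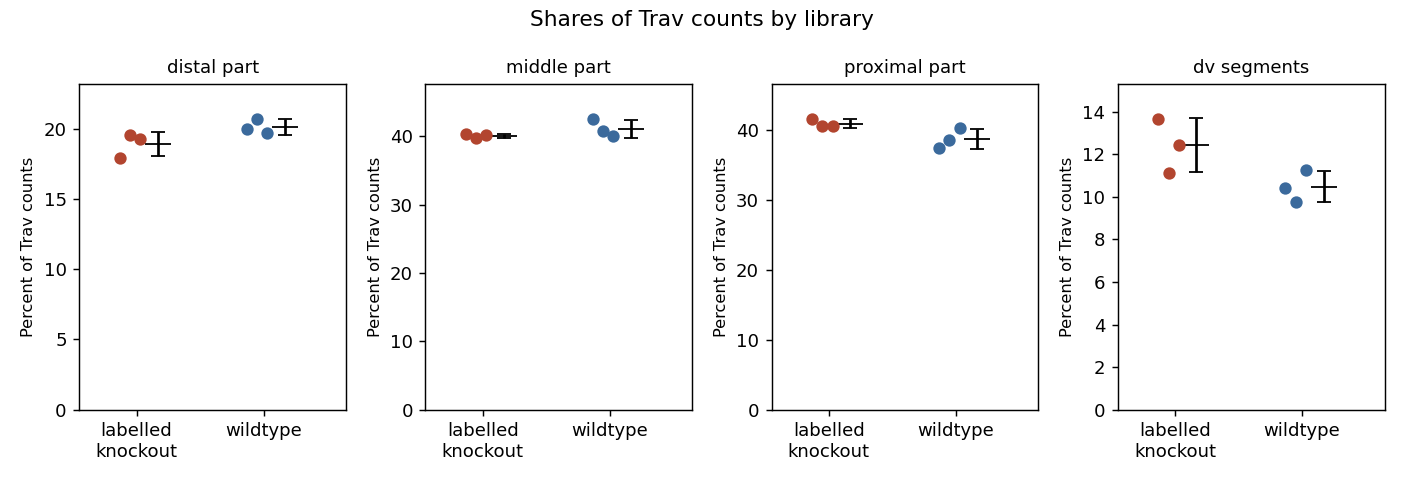
Percent of Trav counts (y axes, from 0) in the distal, middle and proximal part of the array and in the 10 dv segments, by library, with the labelled knockout left of wildtype. Points are libraries and bars are the mean ± SD (n = 3 each); the distal and proximal parts do not overlap between the genotypes, and the middle part and the dv segments do.

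Single shares that did not overlap between the genotypes were 7 higher and 15 lower, where counts per Trav count of all genes gave 37.1% higher and 0.856% lower, since the summed Trav level is the divisor. Of the 7 higher, 6 lay in the proximal part. Trav21-dv12 held 2.42%, 1.60% and 2.06% of Trav counts in the labelled knockout and 1.24%, 1.26% and 1.34% in wildtype, with means of 2.03 ± 0.410% in the labelled knockout and 1.28 ± 0.0511% in wildtype (SD, n = 3 each). With the summed Trav counts as library size it was the only segment called, with a log2 fold of 0.66 (edgeR's quasi-likelihood test, adjusted p = 0.0493). That fit divides every gene by the Trav level, and its adjustment runs over all these shifted genes. The share of all genes called there is not given, so the call cannot be weighed against the main fit (adjusted p = 0.434). Trav13-1 held 1.93%, 1.87% and 1.64% in the labelled knockout and 1.52%, 1.54% and 1.49% in wildtype, and Trav9-2 held 1.25%, 1.27% and 1.51% in the labelled knockout and 1.13%, 1.24% and 1.25% in wildtype. For these 2 the CPM overlapped and was fitted lower, with folds of 0.970 and 0.900.

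Lower shares of at least 1% belonged to Trav7d-4, Trav12d-2 with its copy Trav12n-2, and Trav14-2. Trav7d-4 held 1.01%, 0.995% and 1.04% in the labelled knockout and 1.04%, 1.23% and 1.14% in wildtype. The nearest libraries of the 2 genotypes were almost level there. Trav12d-2 held 0.956%, 0.968% and 0.886% in the labelled knockout and 1.04%, 1.32% and 0.998% in wildtype, and Trav14-2 held 1.59%, 1.80% and 1.65% in the labelled knockout and 2.14%, 1.81% and 1.88% in wildtype. In each of these the genotypes did not overlap.

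**Figure D5:**
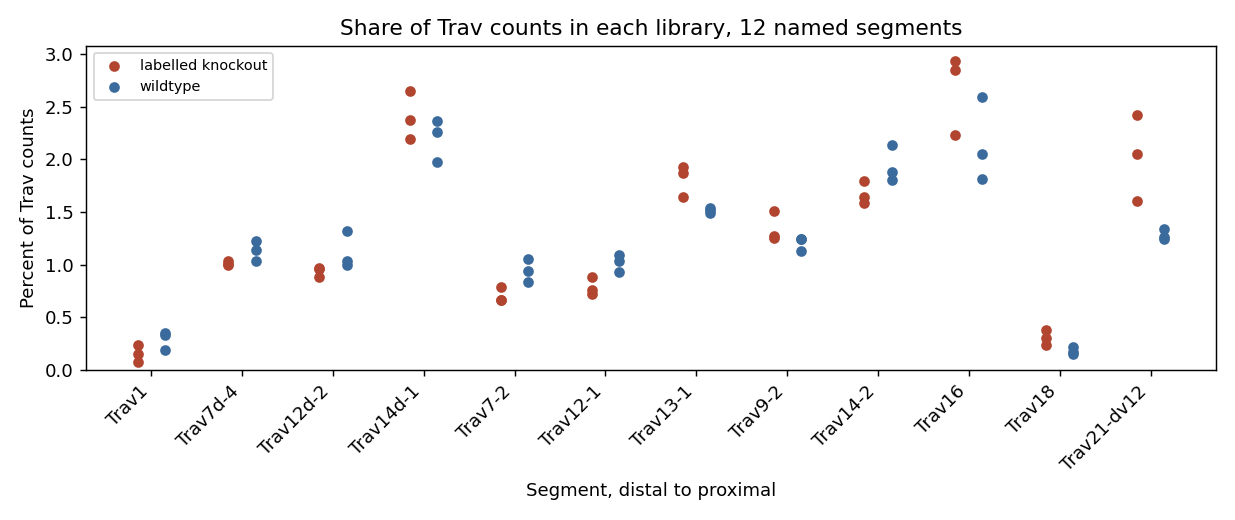
Percent of Trav counts (y axis, from 0) of 12 named segments in each library, ordered from distal to proximal (x axis), with the labelled knockout in red left of wildtype in blue. Each point is a library; Trav21-dv12, at the right, has all 3 libraries of the labelled knockout above wildtype, while those of Trav16 overlap.

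The 10 segments with dv in their symbol were fitted on both sides. Of the 10, 4 were fitted higher and 6 lower with a median log2 fold of -0.08, while of the 99 segments that are neither dv nor a copy of one 9 were fitted higher and 90 lower with a median of -0.35. Dv segments held 13.7%, 11.1% and 12.5% of Trav counts in the labelled knockout and 10.4%, 9.77% and 11.3% in wildtype. The genotypes overlapped by replicate 2 of the labelled knockout and replicate 3 of wildtype, and the difference of 1.94 percentage points had a two-sided exact permutation p of 0.2. A read of a dv segment may come from an alpha or a delta chain, and Trdc, at 46.8, 27.8 and 38.4 counts per 100 Trac counts in the labelled knockout and 21.3, 15.7 and 22.7 in wildtype, moved with this share. How much of the dv counts came from delta chains was not tested.

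Members of the dv group differed. Trav15-2-dv6-2, whose end is printed above, had 2.86, 2.32 and 2.80 CPM in the labelled knockout and 2.80, 2.18 and 2.21 CPM in wildtype, a fold of 1.11. Trav15d-2-dv6d-2, which shares its counts with Trav15n-2, had 163, 149 and 151 counts in the labelled knockout and 112, 83 and 146 in wildtype, a fold of 1.19. Trav4-4-dv10 had 2.71, 3.71 and 3.28 CPM in the labelled knockout and 3.66, 4.50 and 4.70 CPM in wildtype, a fold of 0.755. All 3 overlapped between the genotypes. Trav6-7-dv9, with 2.91, 3.31 and 2.39 CPM in the labelled knockout and 3.44, 3.81 and 3.71 CPM in wildtype, did not overlap and was the dv segment lower in this way. Without the dv segments and their copies, the proximal part held a mean of 38.0% in the labelled knockout and 36.0% in wildtype, with replicate 3 of both genotypes level at 37.7%, and the difference in mean position was 14.5 kb with overlap (exact permutation p = 0.1 and 0.2).

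Families were mostly fitted lower. Their sums are less exposed to any division of reads among copies, but hold a read more than once if each copy counted it. Of 22 tested, 15 were fitted lower, and 9 had an unadjusted p under 0.05, all lower (Trav1, Trav3, Trav4, Trav6, Trav7, Trav9, Trav10, Trav12 and Trav13), where the same fit gave 7.93% higher and 6.67% lower of all rows. EdgeR's quasi-likelihood test called 0, and its smallest Benjamini-Hochberg adjusted p was 0.141. That was the Trav7 family of 13 segments, with 13.4, 18.6 and 16.2 CPM in the labelled knockout and 23.7, 25.6 and 22.8 CPM in wildtype, a fold of 0.667 with no overlap. The Trav12 family of 10 segments had 13.8, 17.6 and 13.7 CPM in the labelled knockout and 20.7, 23.3 and 18.9 CPM in wildtype, a fold of 0.717. DESeq2 called both families lower (Benjamini-Hochberg adjusted p = 0.00538 and 0.0322), and so did edgeR's quasi-likelihood test without a filter on low counts (0.00121 and 0.0186). The share of all rows called in these family fits is not given. Every other alternative fitted on families, limma-voom and the replicate block among them, called 0.

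Larger families whose genotypes overlapped were Trav15, Trav16 and Trav14. Trav15, of which 4 segments carry a dv name, had 15.8, 10.7 and 12.2 CPM in the labelled knockout and 12.7, 9.99 and 12.5 CPM in wildtype, a fold of 1.10. Trav16 had 10.1, 13.6 and 9.97 CPM in the labelled knockout and 11.2, 11.4 and 13.5 CPM in wildtype, a fold of 0.934. Trav14 had 31.7, 32.4 and 25.0 CPM in the labelled knockout and 39.8, 32.1 and 35.0 CPM in wildtype, a fold of 0.833.

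Shares of the duplicated blocks overlapped between the genotypes. Original segments held 42.1 ± 0.947% of the counts of families with d or n members in the labelled knockout and 41.7 ± 1.52% in wildtype (SD, n = 3 each, two-sided exact permutation p = 1.0). The d copies held 30.8 ± 0.239% in the labelled knockout and 31.0 ± 0.637% in wildtype (exact permutation p = 0.8), and the n copies 27.2 ± 0.786% in the labelled knockout and 27.3 ± 0.936% in wildtype (exact permutation p = 0.9). These shares were in all cases within the spread of the replicates. Most of the 19 near-equal pairs join a d copy to an n copy, so the d and n shares rest largely on the same values. They could hardly move apart, and their p-values do not test the use of d against n copies.

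Markers of other cells were measured beside these results. Thymocyte markers were fitted lower in 7 of 8, with Ptcra the exception. Their sum, like the Trav sum, was lower in each library of the labelled knockout than in any of wildtype. Within wildtype, replicate 1 had the lowest thymocyte sum and the highest Trav sum. Summed markers of B cells were 585 to 705 CPM in the labelled knockout and 629 to 802 CPM in wildtype, and those of macrophages were 38.0 to 77.7 CPM in the labelled knockout and 45.1 to 67.3 CPM in wildtype. Those of dendritic cells were 12.4 to 47.7 CPM in the labelled knockout and 18.6 to 20.4 CPM in wildtype, and those of thymic epithelium 15.7 to 17.2 CPM in the labelled knockout and 13.0 to 16.2 CPM in wildtype. Those of red cells were 1.85 to 19.1 CPM in the labelled knockout and 4.86 to 32.8 CPM in wildtype. Each of these 5 sums overlapped between the genotypes. No gene of these lists was at 0 in every library. What cell composition adds to the Trav level was not tested.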

How the data were processed

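RNA of thymocytes was isolated with a column kit and made into stranded, poly(A)-selected libraries, per the labels' protocols. STAR 2.5.4b, featureCounts and the build GRCm38 are named in the submitters' processing notes. The strand setting, the annotation release and the treatment of reads that map to several places are, like the version of featureCounts, not given in the sources used here, and they decide how reads of duplicated Trav segments are shared out. The authors deposited a table of raw, unscaled counts with Ensembl identifiers as rows and libraries as columns. GENCODE M21 on GRCm38 held all 55536 identifiers and supplied the symbols, gene types, lengths and coding sequences.

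The whole table was fitted with edgeR 4.0.16 in R 4.3.3 (filterByExpr, TMM, glmQLFit with robust = TRUE, glmQLFTest, no covariate), which tested 18690 genes at a Benjamini-Hochberg adjusted p threshold of 0.05. The fit was tested on simulated data. CPM are counts over the TMM-scaled library size. Families were fitted likewise as sums. Parts of the array, positions, dv and copy shares used the 111 segments with 60 or more counts, and 1 value per library was compared with two-sided exact permutation tests. The p-values set the difference between the genotypes against the spread between the 3 mice of each. Named were the 10 segments of largest share, the 5 of smallest p in each direction, both ends of the array, members of the copy clusters described, and segments of at least 1% whose shares did not overlap; Trav12-2, Trav9d-4 with Trav9n-4, Trav7n-6, Trav22, Trav11n, Trav15-2-dv6-2, Trav4-4-dv10 and Trav6-7-dv9 were added after their values were seen. Members, gene lists and tests were chosen with earlier results of these data known. Alternatives were DESeq2 1.42.0, limma-voom (limma 3.58.1), other scalings and count minimums, shares per exonic length, the omission of segments with near-equal copies, a replicate block and the omission of each library. The omission of replicate 1 of each genotype, of dv segments and the merging of copies were added after the data were seen. Counting error limits the segments of few counts, such as Trav20 with 72 over the 6 libraries. 1 gene of the lists is not reported here.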

Additional observations from a re-analysis of the deposited data

How the results depend on the processing

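No Trav segment was called lower under any alternative, and the number called higher moved from 0 to 1 only when the library size was set to the summed Trav counts. The adjustment of that fit runs over a whole table shifted by this divisor. Families called lower numbered 2 under DESeq2 and 2 without a filter on low counts, and 0 otherwise; the cause was not tested. Whether the replicate numbers pair the mice is not stated in the labels. Deviations from the genotype mean correlated at -0.10, 0.09 and -0.12 between same-numbered libraries. These values cannot decide it, since deviations within a genotype constrain each other, and replicate 1 of both genotypes was Xist-high. The edgeR fit with the replicate number as a block called 0 segments, with 9 at an unadjusted p under 0.05, and 0 families. With the summed Trav counts as library size the log2 fold turned to 0.26 for Trav13-1, 0.13 for Trav14d-1, 0.14 for Trav14n-1, 0.0352 for Trav14d-2, 0.0391 for Trav14n-2, 0.11 for Trav16n and 0.16 for Trav9-2, by construction a fold of shares. Leaving out each library in turn gave log2 folds of -0.15 to 0.0732 for Trav13-1, -0.15 to 0.18 for Trav16 and -0.15 to 0.65 for Trav23. It gave differences of -0.486 to 1.02 percentage points for original copies, -0.410 to 0.161 for d copies and -0.607 to 0.334 for n copies. It kept the sign of the summed CPM (-59.3 to -39.5), the proximal share (1.52 to 2.96), the distal share (-1.53 to -0.703), the mean position (12.3 to 21.5 kb) and the dv share (1.32 to 2.59). It called 0 segments and 0 families in each case. Without replicate 1 of each genotype, the log2 fold was -0.08 for Trav16 and -0.27 for Trav23, and the difference was -0.0847 percentage points for original, 0.0223 for d and 0.0624 for n copies. Depth limits Trav1, Trav20 and Trav23, which had at most 52 counts in a library.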
